A study of Rattus norvegicus with 14 samples.

Results

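Il33 encodes interleukin-33, a cytokine of the interleukin-1 family. It is 1 of 14217 genes named on the array and is described here on its 2 probe sets, 1373970_at and 1389581_at, which are all of those that carry the symbol Il33 among the 31099 probe sets of the array, over all 14 arrays of the series. The gene was chosen by its measured signals in these data, because it lay on opposite sides of the solvent control under NS-398 in 2 sets of arrays. Its levels, and its differences under NS-398 and indomethacin, are therefore given as a description without a test.

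RNA came from monolayers of IEC-6, a non-transformed epithelial line from rat small intestine, kept for 72 h with 100 µM indomethacin (2 arrays), 100 µM NS-398 (4 arrays), 1 µM SC-560 (4 arrays) or the solvent DMSO alone (4 arrays). Indomethacin blocks both cyclooxygenases, NS-398 prefers cyclooxygenase-2 and SC-560 prefers cyclooxygenase-1, and SC-560 was used at the lower dose. Per the submitters, indomethacin and NS-398 slow cell migration and SC-560 does not. The labels number arrays 1 or 2 within a group, and on 8 of them a suffix b follows whose meaning the sources used here do not give. These 8 arrays and the 6 that lack it are called label sets, each group has 2 arrays in a set, and indomethacin has arrays with suffix b only. Cultures were pooled before hybridisation, per the submitters, so the p-values below cover array-to-array spread, part of which may be technical. All cells come from 1 cell line, and in such bulk RNA fewer cells expressing a gene and less RNA per cell cannot be told apart.

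Interleukin-33 is stored in the nucleus of epithelial, endothelial and stromal cells, bound to chromatin, and is released when cells are damaged, for which it is called an alarmin. Outside the cell it binds the receptor ST2, the product of Il1rl1, which pairs with the accessory protein of Il1rap and signals through Myd88, the IRAK kinases and Traf6 to NF-kB and MAP kinases. In the intestine it is known for activating type 2 lymphoid cells during worm infection and tissue repair. Proteases such as calpains and those of neutrophils and mast cells cut it into shorter active forms.

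RefSeq gives Il33 a pair of promoter windows on the plus strand of rat chromosome 1, shown because the probe sets may read transcripts from either start and the arrays do not tell the starts apart. The windows lie at chr1:237115323-237115622 and chr1:237134696-237134995 (GRCr8), each 300 bases long with 250 bases before the start site and 50 after it, and capitals mark a TATA box.
Il33 window 1: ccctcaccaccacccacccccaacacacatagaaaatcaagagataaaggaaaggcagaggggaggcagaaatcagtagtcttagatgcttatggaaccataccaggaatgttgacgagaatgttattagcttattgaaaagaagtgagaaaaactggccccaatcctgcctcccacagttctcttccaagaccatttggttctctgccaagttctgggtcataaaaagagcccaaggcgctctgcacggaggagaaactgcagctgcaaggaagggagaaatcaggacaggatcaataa
Il33 window 2: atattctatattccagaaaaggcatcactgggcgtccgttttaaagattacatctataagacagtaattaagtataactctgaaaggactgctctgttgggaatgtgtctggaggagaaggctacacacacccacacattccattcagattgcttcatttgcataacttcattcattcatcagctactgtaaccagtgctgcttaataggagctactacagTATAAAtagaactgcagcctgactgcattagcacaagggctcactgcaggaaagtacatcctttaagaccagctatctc
With these sequences in view, both strands were searched for TATAAA, for TGANTCA as bound by AP-1, for TTCNNNGAA as bound by STAT factors and for TGACNNNGC, the core of the antioxidant response element. The match in window 2 begins 29 bases before the start site (position -29), and TATAAA occurs in 14.2% of the 33469 rat windows. The other motifs have no match in these letters. Their shares among all windows were 7.33% for TGANTCA, 8.87% for TTCNNNGAA and 12.1% for TGACNNNGC.

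The state of the arrays bears on every value of Il33, because the label sets differed strongly. The beta-actin control probe sets, which track how intact and how fully labelled the RNA was, gave a ratio of the 3' to the 5' probe set of 1.22 to 1.34 with suffix b and 1.498 to 1.639 without it. That ratio for Gapdh overlapped between the sets (0.955 to 1.002 and 0.902 to 0.990). Of 12 epithelial markers 7 reached a signal of 100 on at least 2 arrays, with sums of 12925 to 16087 with suffix b and 10927 to 11822 without it. Epcam, Krt18, Cldn3, Cldn4 and Cldn7, markers of most intestinal epithelium, stayed under 100 on all 14 arrays. Cdx2, the transcription factor of intestinal identity, had group means of 3339 to 5092 with suffix b and 62.4 to 93.4 without it, and Cdh1, the adhesion molecule E-cadherin, had 2756 to 3482 with suffix b and 7823 to 8101 without it. The summed signal of 10 fibroblast markers was 89950 to 104650 with suffix b and 66771 to 76015 without it, with Pdgfrb, Thy1 and Fap under 100 throughout. Col1a1, Col1a2 and Col3a1, the fibrillar collagens, carried that difference. Dcn, the proteoglycan decorin, ran the other way, with DMSO means of 1671 with suffix b and 4533 without it. Of 6 endothelial markers on the array, Pecam1, Tie1, Vwf and Cldn5 stayed under 100 everywhere, and the sum was 734 to 893 with suffix b and 361 to 485 without it. That difference was Tek (DMSO means of 720 with suffix b and 210 without it), while Kdr ran the other way (2.52 and 94.4). Of 7 markers of blood cells 1 reached 100 on at least 2 arrays, Cd68, and the sums were 189 to 297 with suffix b and 120 to 187 without it. Ptprc, the pan-leukocyte gene, stayed under 100 throughout. For 6 smooth muscle markers the sums were 984 to 2079 with suffix b and 1817 to 2566 without it, and for 5 tuft cell markers 2561 to 3331 with suffix b and 1858 to 2809 without it, almost all from Dclk1. Il33 was thus read in cells whose markers also moved with the label set, and the part of these differences in its levels was not tested.

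Without the suffix, Il33 was higher under NS-398. Probe set 1373970_at read 1094 and 1397 on the NS-398 arrays, against 588 and 568 on the DMSO arrays. The groups did not overlap, and both NS-398 arrays lay above every DMSO and SC-560 array of the set. With 2 arrays in each group, a lack of overlap says little by itself, here and below. The ratio of the mean signals was 2.15, and the log2 difference of signal plus 50 was 1.04 ± 0.11 (SE from the fit to all arrays). Probe set 1389581_at read 458 and 545 on the NS-398 arrays and 310 and 275 on the DMSO arrays, a ratio of 1.72 and a log2 difference of 0.69 ± 0.12. Again no NS-398 array fell among the DMSO arrays. Of the fibroblast markers, Dcn was higher beside Il33, with mean signals under NS-398 and DMSO of 8937 and 4533. Lum (258 and 48.9) and Pdgfra (152 and 30.3) were higher as well. Both reached the signal required of a counted marker only on these NS-398 arrays, so their difference is no support. In every other combination of group and label set the mean was at most 48.9 for Lum and 32.2 for Pdgfra. Col1a1 (10646 and 13123) and Col1a2 (7030 and 8818) were lower. In the set with suffix b, where Il33 was lower under NS-398, Dcn was again higher (2556.5 and 1671). The part of these markers in the difference of Il33 was not tested.

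With suffix b, the same drug at the same dose and time went with lower Il33. Probe set 1373970_at read 1467 and 1427 under NS-398, against 3491 and 3950 under DMSO, so that the mean was 61.1% lower and the log2 difference was -1.33 ± 0.11. Probe set 1389581_at read 638 and 646 under NS-398 and 1576 and 1936 under DMSO, 63.4% lower, with a log2 difference of -1.38 ± 0.12. The NS-398 arrays were the lowest of this set on both probe sets and close to each other, while the 2 DMSO arrays lay further apart. Tagln, a smooth muscle marker, was also lower in this set, with means of 217 under indomethacin, 270 under NS-398 and 994 under DMSO. Other markers of that list differed from it. Des was higher (176, 240 and 130 in that order), as was Myh11 (130, 99.8 and 89.3), and Acta2 was slightly lower (385, 371 and 443). Cnn1 and Actg2 stayed under 100 on all arrays. Without the suffix, where Il33 was higher under NS-398, Tagln was lower too, with means of 1172 under NS-398 and 1641 under DMSO. The part of these genes in the differences of Il33 was not tested.

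**Figure D1:**
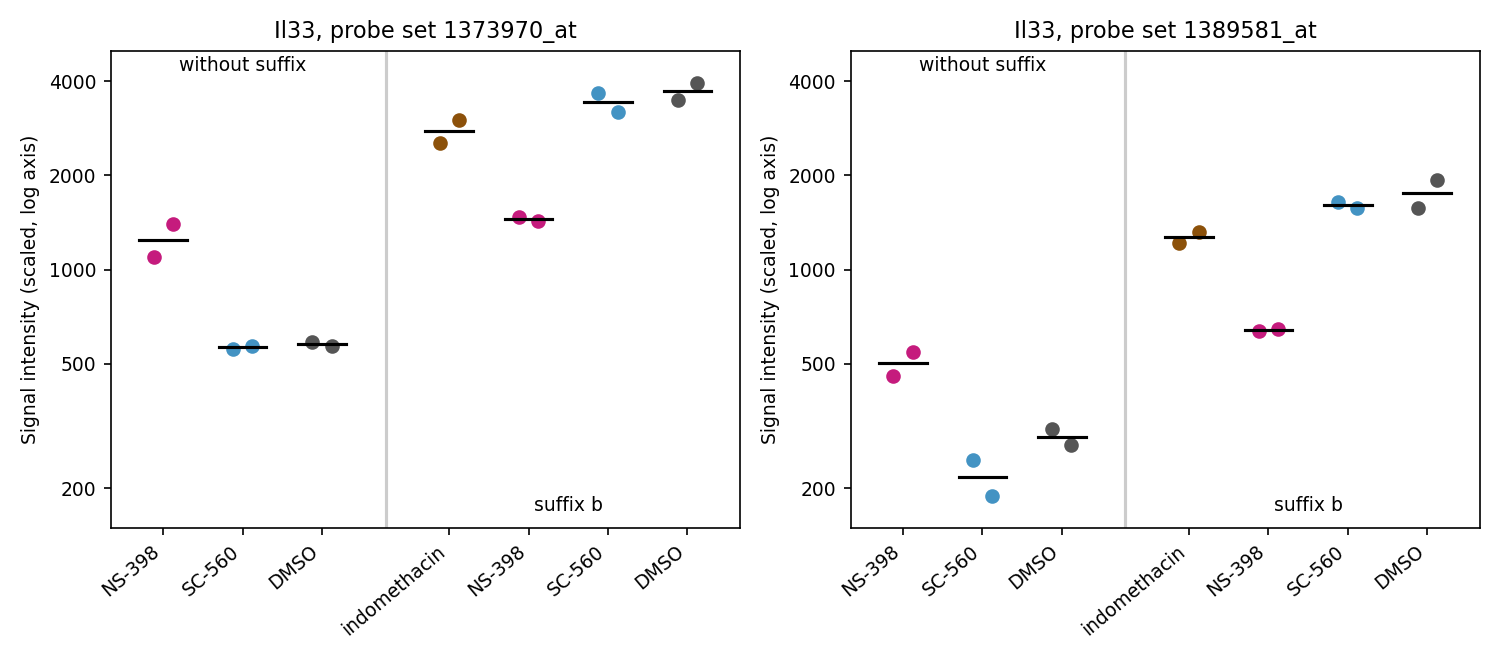
Signal intensity of Il33 on a log axis for each array (points) with the mean of each group and label set (black lines), for probe sets 1373970_at (left) and 1389581_at (right). NS-398 lies above DMSO without the suffix and below it with suffix b, and its levels in the label sets are close to each other.

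Seen per drug, the difference between the label sets was small under NS-398 and large otherwise. On probe set 1373970_at the mean signal with suffix b was 1.16 times that without it under NS-398 (1447 ± 28.6 and 1246 ± 214, SD, n = 2 each). The same ratio was 6.07 under SC-560 (3427 ± 338 and 565 ± 9.44) and 6.44 under DMSO (3720 ± 324 and 578 ± 13.6). Probe set 1389581_at gave ratios of 1.28 under NS-398, 7.38 under SC-560 and 6.01 under DMSO. On both probe sets the NS-398 arrays of either set lay above the DMSO arrays without the suffix and below those with suffix b.

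The size of this reversal had few equals on the array. The 17515 probe sets tested were those with a signal of at least 100 on at least 2 arrays. Of these, 1 was higher by a log2 change of at least 1 without the suffix and lower by as much with suffix b (0.00571%). It was Il33 probe set 1373970_at, while none (0%) was lower without the suffix and higher with b by as much. Its change without the suffix, 1.04, lay near that cut. It was 0.89 at a pseudocount of 200 and 0.87 without NS-398 array 2, so this count depends on the cut and on 1 array. Probe set 1389581_at, at 0.69, did not reach the cut. In the order of the NS-398 effect with suffix b minus that without it, probe set 1373970_at was number 2 from the negative end, at -2.37 ± 0.15, and 1389581_at number 5, at -2.06 ± 0.17. These ranks describe the choice of the gene and support nothing further. At an adjusted p under 0.05 in limma, 54 probe sets (0.308%) were called higher without the suffix and lower with b, 62 (0.354%) the other way and 576 (3.29%) in the same direction in both sets.

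**Figure D2:**
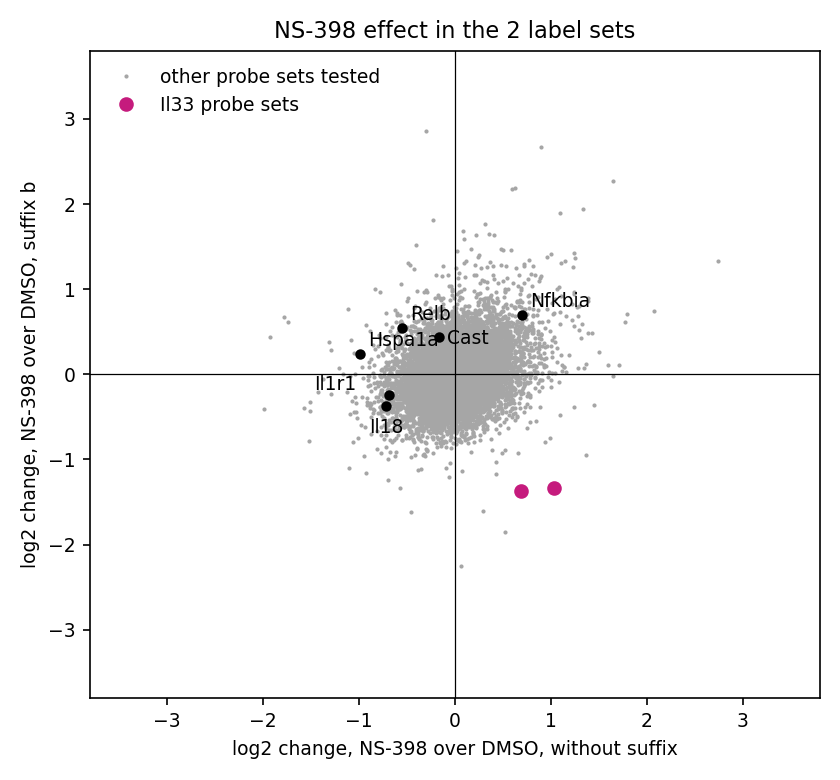
Log2 change of signal plus 50 under NS-398 against DMSO in arrays without the suffix (x axis) and with suffix b (y axis) for the 17515 probe sets tested (grey), with the Il33 probe sets in colour and 6 genes around Il33 in black. The Il33 probe sets stand at 1.04 and 0.69 on the x axis and at -1.33 and -1.38 on the y axis, at the lower right.

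Indomethacin went with lower Il33 than DMSO as well, by less than NS-398. With suffix b, indomethacin arrays read 2528 and 2999 on probe set 1373970_at, against 3491 and 3950 for DMSO. The groups did not overlap, the mean was 25.7% lower, and the log2 difference was -0.42 ± 0.11. Probe set 1389581_at read 1217 and 1317 under indomethacin and 1576 and 1936 under DMSO, 27.8% lower, with a log2 difference of -0.45 ± 0.12. It moved with the DMSO array used and was -0.59 without DMSO array 1b and -0.30 without DMSO array 2b. At the matched dose of 100 µM and in the same set, the mean signal under indomethacin was 1.91 times that under NS-398 on 1373970_at and 1.97 times on 1389581_at. Both differences from DMSO use the same pair of DMSO arrays.

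SC-560 against DMSO is the drug comparison that did not enter the choice of Il33, and it was tested. Its DMSO arrays did enter that choice, as the control for NS-398, so the test is not independent of it. Probe set 1373970_at read 558 and 571 on the SC-560 arrays without the suffix, against 588 and 568 on the DMSO arrays. In the set with suffix b it read 3666 and 3188 under SC-560 and 3491 and 3950 under DMSO. The groups overlapped in both sets, and the log2 change averaged over the sets was -0.07 ± 0.08 (limma adjusted p 0.790), with a 95% interval from -0.24 to 0.09. Probe set 1389581_at read 246 and 190 under SC-560 and 310 and 275 under DMSO without the suffix, where the groups did not overlap. In the set with suffix b it read 1641 and 1576 under SC-560 and 1576 and 1936 under DMSO, where they did. Its log2 change was -0.24 ± 0.09 with a 95% interval from -0.42 to -0.05 before adjustment, and it did not pass the test (limma adjusted p 0.347, unadjusted p 0.0146). In this comparison 0.0914% of probe sets were called (16 of 17515, with 0.0685% higher and 0.0228% lower), and Il33 was not among them.

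**Figure D3:**
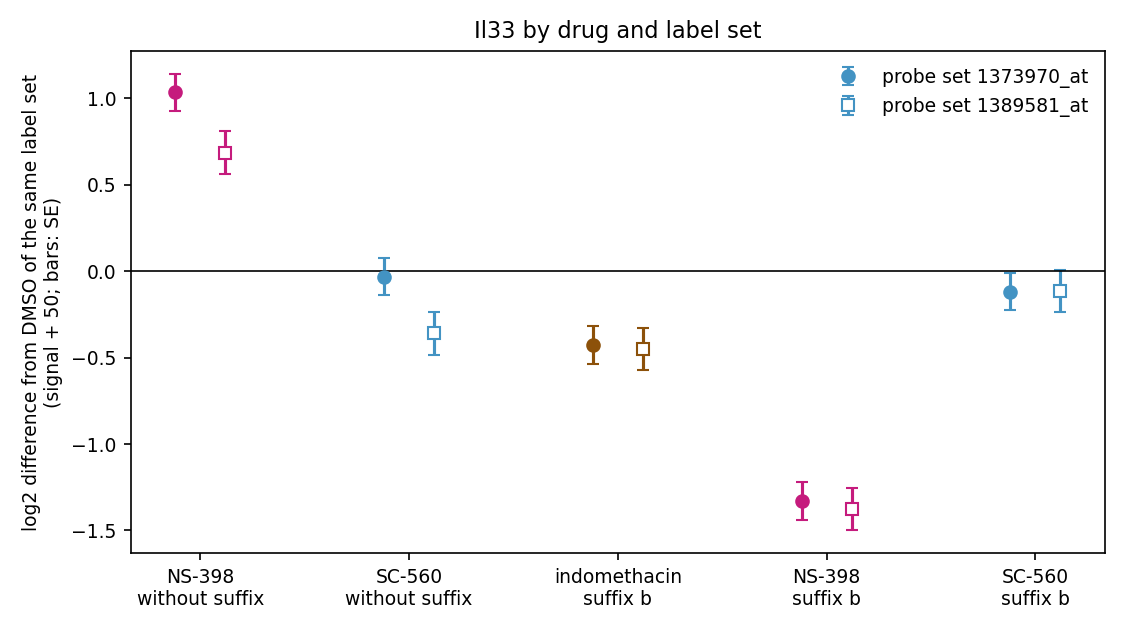
Log2 difference of Il33 (signal plus 50) from DMSO of the same label set for each drug, with bars for the SE, on probe sets 1373970_at (filled circles) and 1389581_at (open squares). NS-398 lies at 1.04 and 0.69 without the suffix and at -1.33 and -1.38 with suffix b, indomethacin at -0.42 and -0.45.

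In order of level on probe set 1373970_at, DMSO and SC-560 with suffix b came first, with array ranges that overlapped. They were followed by indomethacin with suffix b, NS-398 with suffix b and NS-398 without the suffix, none of which overlapped with its neighbour. DMSO and SC-560 without the suffix came last and overlapped. Probe set 1389581_at gave the same order of means, and there the last pair did not overlap. The probe sets correlated with r = 0.991 over the 14 arrays, 0.926 within the 6 arrays without the suffix and 0.994 within the 8 with suffix b, which describes 2 readings of the same RNA on the same arrays.

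Genes around interleukin-33 were next examined, from lists chosen with earlier results of these data known. They covered its receptor and signalling, the interleukin-1 family, other alarmins and epithelial cytokines, and proteases that cut it. Further lists held NF-kB genes, and targets of type 2 cytokines with cytokines of the cells on which it acts. The 6 lists held 92 genes, of which 72 had a probe set with that symbol and 51 were tested, each on the probe set brightest on average. Over all lists 5 genes rose and 8 fell under NS-398 without the suffix, where 11.9% of all probe sets were called (6.13% higher, 5.81% lower). With suffix b 8 rose, counting Il6, which passed the filter only through these NS-398 arrays, and 2 fell under NS-398 (14.7% of all probe sets called, 7.71% higher and 6.99% lower). Under indomethacin 3 rose and 8 fell (7.1% of all, 3.43% higher and 3.67% lower). These counts rested on single arrays: leaving out 1 took them to as few as 5 in each of these comparisons (without DMSO array 2 or NS-398 array 1 or 2, without DMSO or NS-398 array 1b, and without DMSO or indomethacin array 2b, in the order given). Under SC-560 none of the 51 was called in limma, with or without any 1 array. The NS-398 effect differed between the label sets for 5 of the 51 (9.8%), all with the higher effect in suffix b, against 6.09% of all probe sets (3.23% higher, 2.86% lower). The listed genes as a whole had median log2 changes of -0.04 under NS-398 without the suffix, 0.05 under NS-398 with suffix b and 0.01 under indomethacin, beside medians over all tested probe sets of -0.004, -0.009 and -0.004.

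The receptor itself was barely read. Il1rl1, the gene of ST2, had signals of 63.1 and 55.3 on the NS-398 arrays, 57.7 and 86.9 on the SC-560 arrays and 65.8 and 74.8 on the DMSO arrays without the suffix. With suffix b they were 60.7 and 52.1 under indomethacin, 32.2 and 60.4 under NS-398, 101 and 116 under SC-560 and 55.6 and 69.3 under DMSO, and no comparison called it. Il1rap, the accessory receptor, read 232 and 321 under indomethacin and 173 and 135 under DMSO with suffix b, with no overlap, but its log2 change of 0.67 did not pass (limma adjusted p 0.152). Of the 15 genes of receptor and signalling tested, 1 fell under NS-398 without the suffix, beside 5.81% of all probe sets. It was Mapk14, the kinase p38 alpha (-0.25 ± 0.08). Under NS-398 with suffix b 1 rose, beside 7.71% of all probe sets. It was Tab3, an adaptor of the kinase TAK1 (0.67 ± 0.14), which also rose under indomethacin (0.56 ± 0.14), where Irak1 fell (-0.34 ± 0.08). The adaptor Myd88 was not called, with log2 changes of -0.14 and 0.11 under NS-398 without and with the suffix and 0.18 under indomethacin. None of these calls held when each array was left out in turn. Irak1 had a limma adjusted p of 0.154 without indomethacin array 2b and also lost its call without DMSO array 1b, Tab3 had 0.055 without NS-398 array 1b, and under indomethacin 0.143 without DMSO array 2b, with its call also lost without DMSO array 1b or either indomethacin array. Mapk14 had 0.233 without DMSO array 2 and lost its call with 8 of the 14 arrays left out singly, all except DMSO 1b and 2b, NS-398 1b and 2b and SC-560 1 and 2.

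Il18 lay on the same side of DMSO in both sets. This interleukin, which caspase-1 activates, read 799 and 747 under NS-398 and 1351 and 1269 under DMSO without the suffix (log2 change -0.72 ± 0.10, limma adjusted p 0.000156). With suffix b it read 622 and 668 under NS-398 and 873 and 825 under DMSO (-0.37 ± 0.10, limma adjusted p 0.0160), so it fell in both sets without overlap of the groups. Its call with suffix b was lost without DMSO array 1b (adjusted p 0.121) or NS-398 array 1b. Il1r1, the receptor of interleukin-1, fell under NS-398 without the suffix, at 1525 and 1430 against 2228 and 2613 under DMSO (-0.69 ± 0.12, limma adjusted p 0.00140). In that with suffix b it read 680 and 532 under NS-398 and 749 and 690 under DMSO (-0.24, adjusted p 0.215). Of 10 family members on the array 3 were tested. Il1a, Il1b and the receptor antagonist Il1rn stayed under a signal of 100 on all arrays, so that Il33 and Il18 were the cytokines of the family that were read.

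Among other alarmins and epithelial cytokines, Hmgb1, a chromatin protein that is also released from damaged cells, fell under NS-398 with suffix b. It read 5349 and 4738 on the NS-398 arrays and 6224 and 6373 on the DMSO arrays (-0.32 ± 0.06, limma adjusted p 0.00249), and without the suffix 4927 and 5059 against 5141 and 5495 (-0.09, adjusted p 0.398). Tslp, an epithelial cytokine of type 2 immunity, was read on the arrays without the suffix, at 152 and 193 under NS-398 and 206 and 193 under DMSO, and stayed at 4.45 to 64.0 on all arrays with suffix b. It thus lay lower with suffix b in the 3 groups that have both sets, and no drug comparison called it. Hspa1a, the inducible heat shock protein 70, fell under NS-398 without the suffix to 113 and 108, against 259 and 281 under DMSO (-0.995 ± 0.136, limma adjusted p 0.000179). With suffix b it read 251 and 285 under NS-398 and 219 and 220 under DMSO, and the effect differed between the sets (interaction 1.23 ± 0.19, limma adjusted p 0.00136), in the direction opposite to that of Il33. In all, 2 of the 8 tested rose and 1 fell under NS-398 without the suffix (6.13% and 5.81% of all probe sets). With suffix b 1 rose and 1 fell (7.71% and 6.99% of all). The further calls were Areg, an EGF receptor ligand (0.43 ± 0.11), and the chaperonin Hspd1 (0.19 ± 0.06) without the suffix, Lgals3, galectin-3 (0.26 ± 0.07), with suffix b, and the chaperone Calr under indomethacin (0.28 ± 0.06). Areg was lost without DMSO array 2 (adjusted p 0.203) or either NS-398 array without the suffix, Lgals3 without NS-398 array 2b (0.186) or DMSO array 2b, and Calr without indomethacin array 2b (0.163) or DMSO array 1b or 2b. Hspd1 lost its call with 8 arrays left out singly, all those of DMSO and indomethacin and NS-398 arrays 1 and 2, up to an adjusted p of 0.299.

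Of the proteases known to cut interleukin-33, and their regulators, 7 were tested. Capn2 (-0.30 ± 0.07) and Capns1 (-0.25 ± 0.06), subunits of the calpains, fell under NS-398 without the suffix, where 5.81% of all probe sets were called lower. Capn1 was tested and not called there (-0.28 ± 0.11, limma adjusted p 0.104). Cast, the calpain inhibitor calpastatin, rose under NS-398 with suffix b, at 4286 and 4035 against 2967 and 3174 under DMSO (0.43 ± 0.07, limma adjusted p 0.000404). In that comparison 7.71% of all probe sets were called higher. Without the suffix Cast read 2165 and 2252 under NS-398 and 2513 and 2475 under DMSO, and its effect differed between the sets (interaction 0.60 ± 0.09, limma adjusted p 0.00134). Cast also rose under indomethacin (0.25 ± 0.07, limma adjusted p 0.0301), where 3.43% of all probe sets were called higher. That call was lost without either indomethacin array or either DMSO array with suffix b (up to 0.247). Capn2 lost its call without NS-398 array 2 (adjusted p 0.0615), and Capns1 without DMSO array 2 (0.128) or NS-398 array 1. Casp1 and Casp8 were tested and not called by any drug comparison.

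Genes of NF-kB, to which the receptor signals, included calls in both directions. Nfkbia, the inhibitor that NF-kB induces, read 7151 and 7553 under NS-398 and 4630 and 4402 under DMSO without the suffix (0.70 ± 0.11, limma adjusted p 0.000594). With suffix b it read 5921 and 5815 under NS-398 and 3320 and 3925 under DMSO (0.69 ± 0.11, adjusted p 0.000472), so it rose in both sets, whereas Il33 took opposite sides. Under indomethacin it fell to 2380 and 2665, against the same DMSO arrays (-0.51 ± 0.11, adjusted p 0.00964, lost without DMSO array 2b, at 0.0997, or indomethacin array 1b). Nfkbiz, an atypical nuclear member of the same protein family, read 453 and 521 under indomethacin and 879 and 921 under DMSO with suffix b (-0.83 ± 0.11, limma adjusted p 0.000266). It rose under NS-398 there (0.41 ± 0.11), a call lost without NS-398 array 1b (adjusted p 0.178) or either DMSO array of that set. Tnfaip3, the deubiquitinase A20, was at 0.65 ± 0.19 under NS-398 without the suffix and at -0.94 ± 0.19 under indomethacin, both called. The first was lost without any 1 of the NS-398 or DMSO arrays of that set (up to 0.173) and the second without indomethacin array 2b (0.0960) or DMSO array 2b. Relb, a subunit of the noncanonical pathway, was at -0.55 ± 0.17 without the suffix and 0.54 ± 0.17 with suffix b under NS-398 (interaction 1.09 ± 0.25, limma adjusted p 0.0145). Its signs were opposite to those of Il33. Either call within a set was lost with 12 of the 14 arrays left out singly, all except SC-560 1b and 2b (up to 0.241 and 0.275), and the interaction without DMSO array 1b (0.0708), DMSO array 2 or NS-398 array 2. Tnip1, a partner of A20, fell without the suffix (-0.34 ± 0.08), a call lost without DMSO array 2 (0.158) or either NS-398 array of that set. Of 11 genes tested, 2 rose and 2 fell under NS-398 without the suffix (6.13% and 5.81% of all probe sets). With suffix b 3 rose under NS-398 (7.71% of all) and 3 fell under indomethacin (3.67% of all). Only the calls of Nfkbia under NS-398 and of Nfkbiz under indomethacin held with any 1 array left out.

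**Figure D4:**
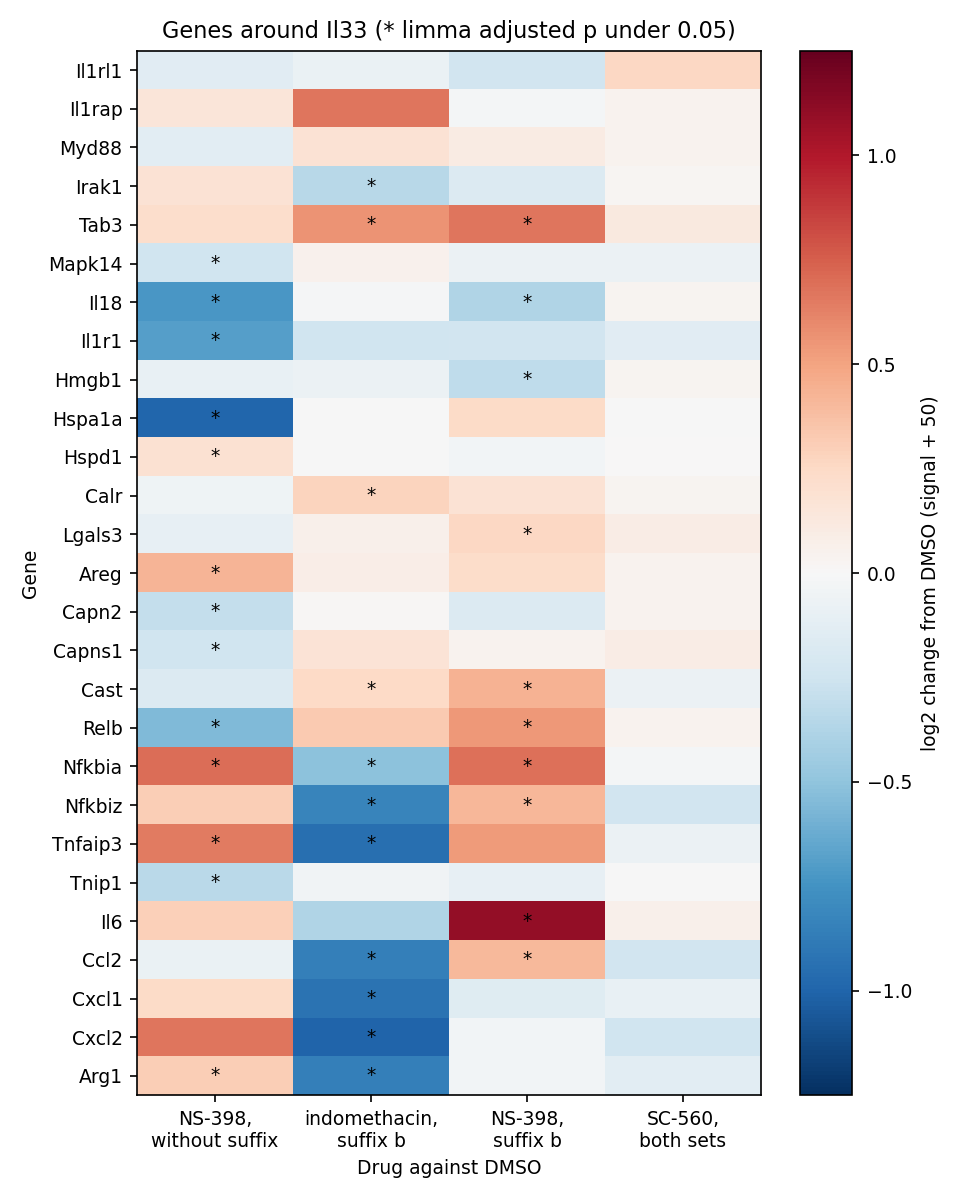
Log2 change (signal plus 50) from DMSO of the genes around Il33 that passed the test in at least 1 comparison, together with Il1rl1, Il1rap and Myd88, in 4 comparisons, with an asterisk at a limma adjusted p under 0.05. Nfkbia is higher under NS-398 in both label sets and lower under indomethacin, while SC-560 has no asterisk.

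The last list held targets of type 2 cytokines and cytokines of the cells on which interleukin-33 acts. Of its 7 genes tested, 4 fell under indomethacin, where 3.67% of all probe sets were called lower. The list was chosen with earlier results of these data known, and these genes are not a reading of interleukin-33 activity. Arg1, an arginase induced in type 2 responses, read 762 and 839 under indomethacin and 1682 and 1317 under DMSO with suffix b (-0.86 ± 0.09, limma adjusted p 5.29e-05). The chemokine Cxcl1 read 3149 and 3113 against 5626 and 6394 (-0.93 ± 0.12, adjusted p 0.000168), and Ccl2, which attracts monocytes, 263 and 281 against 577 and 494 (-0.86 ± 0.12, adjusted p 0.000474). Cxcl2 fell by 1.00 on the log2 scale (limma adjusted p 0.0123, lost without DMSO array 2b, at 0.111, or either indomethacin array). Under NS-398 with suffix b Ccl2 rose (0.40 ± 0.12), a call lost without any 1 of the 4 arrays compared (up to 0.240). Il6 was called higher there (1.10 ± 0.25, lost without NS-398 array 1b, at 0.0754, or DMSO array 1b). It passed the filter only through those NS-398 arrays (149 and 111), with all others at 75.0 or below, so its call is no support. Arg1 was called higher under NS-398 without the suffix (0.31 ± 0.09) but lost that call with 8 arrays left out singly, all those of NS-398, DMSO arrays 1 and 2 and SC-560 arrays 1b and 2b (up to 0.275). Il4, Il5 and Il13, the cytokines of the cells that interleukin-33 activates, stayed under a signal of 100 on all arrays.

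The genes whose profile was most like that of Il33 were sought among 8106 named genes whose mean signal reached 200, by Pearson's r of log2(signal + 50) with probe set 1373970_at over the 14 arrays. All points share the arrays and the label sets, and the median r over these genes was 0.10. The highest values were those of Mcm7, a subunit of the replication helicase (r = 0.975), Shcbp1, which acts in cytokinesis (0.973), Anapc16, a subunit of the anaphase-promoting complex (0.971), Xpot, the exporter of tRNA (0.968), Tpgs2 (0.959), Arhgap11a (0.959), Mthfd2l, a mitochondrial enzyme of folate metabolism (0.957), and Slc39a7, a zinc transporter (0.955). Shcbp1 read 1093 and 1108 under NS-398 and 830 and 884 under DMSO without the suffix. Its arrays with suffix b read 1231 and 1153 under NS-398 and 1645 and 1649 under DMSO. Its NS-398 arrays lay between the DMSO arrays of the sets, as those of Il33 did. Shcbp1 was picked by its correlation with Il33 over these arrays, so this likeness follows largely from the choice and is no support. The size was smaller, with log2 changes of 0.34 and -0.45 under NS-398 without and with the suffix. Over the 8 genes these ran from 0.18 to 0.35 and from -0.21 to -0.45, and a count of 173 genes had an r over 0.9.

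After the mean of each label set was subtracted, the highest values belonged to Eif1a, a factor of translation initiation (r = 0.925), Nop9 (0.921), Tsr1, which matures ribosomal subunits (0.914), Ubr7 (0.908), Mcm7 (0.906), Hgh1 (0.903), Cct2, a subunit of the cytosolic chaperonin (0.898), and Umps, which makes uridine monophosphate (0.896). Eif1a read 2770 and 2887 under NS-398 and 2223 and 2381 under DMSO without the suffix. Its arrays with suffix b read 1914 and 1762 under NS-398 and 2402 and 2287 under DMSO. It took opposite sides in the sets as Il33 did, which follows largely from its choice by this correlation and is no support. Its DMSO level differed little between the sets. The median r over all genes was -0.02 here, and 6 genes had an r over 0.9.

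**Figure D5:**
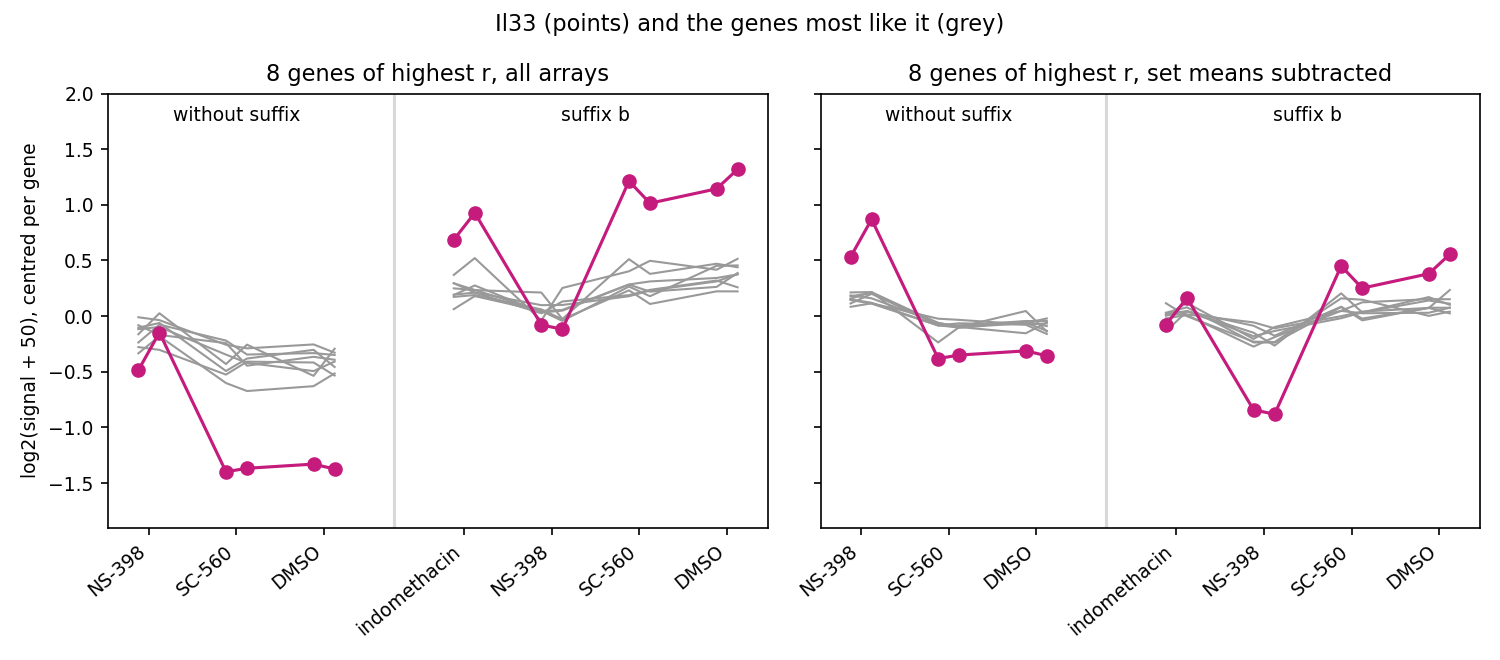
Profiles of Il33 probe set 1373970_at (points) and of the 8 most similar genes (grey) over the 14 arrays as log2(signal + 50), centred per gene (left) and with each label set's mean subtracted (right). Lines only join the arrays of a set, and the grey profiles span a smaller range than Il33. The grey genes were chosen by their correlation with Il33 over these arrays. Under NS-398 they lie on the same side of DMSO as Il33 in both sets, which follows largely from that choice. Under indomethacin Hgh1 and Umps in the right panel do not (0.01 and 0.04).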

How the data were processed

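The authors deposited 1 linear signal intensity per probe set and array, scaled to a target signal of 500 per the labels. The sources used here name no summarising software. Precision is limited by the number of arrays, and detection calls were not used. Names came from the platform annotation, updated by gene identifier from RefSeq (GRCr8): 20832 had 1 symbol, 436 several and 9831 were not listed, and 20764 of the first were found in RefSeq. The 57 control probe sets were left out, and a signal of at least 100 on at least 2 arrays left 17515.

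limma 3.58.1 (R 4.3.3, intensity trend) was run on log2(signal + 50) over all 14 arrays with a cell mean for every one of the 7 combinations of group and label set, with Benjamini-Hochberg adjustment over all tested probe sets and calls under 0.05. Errors on log2 values are standard errors. No 2 arrays held identical values.

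The gene and the lists were chosen with earlier results of these data known. Named genes were, per list and comparison, up to 4 called in each direction by smallest adjusted p, Il1rl1 and Il1rap, and the 8 most similar by each correlation, with predicted loci passed over. Alternatives were pseudocounts of 16 and 200, quantile normalization, no filter, no trend, a replicate block, other fits and leaving out each array. Sequences are from RefSeq (GRCr8).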

Additional observations from a re-analysis of the deposited data

Results flagged for a closer look

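Il33 took opposite sides of DMSO under NS-398 in the label sets on every array compared, which drew attention although the difference was not tested. The log2 differences were 1.04 without the suffix and -1.33 with suffix b on probe set 1373970_at, and 0.69 and -1.38 on 1389581_at.

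Among the genes around Il33, the NS-398 effect differed between the label sets by the limma interaction for 5, all with the larger value with suffix b. The differences, suffix b minus without, were 1.23 for Hspa1a, 1.09 for Relb, 0.60 for Cast, 0.36 for Lgals3 and 0.30 for Capns1. Those of Hspa1a and Cast stayed called with any 1 array left out. Lgals3 (up to an adjusted p of 0.142) and Capns1 (up to 0.171) were lost with 7 and 12 of the arrays left out singly: for Lgals3 all DMSO arrays and NS-398 arrays 1, 2 and 2b, for Capns1 all except SC-560 1 and 2. Relb was lost without DMSO array 1b (0.0708), DMSO array 2 or NS-398 array 2.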

How the results depend on the processing

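The differences of Il33 under NS-398 and indomethacin kept their direction under every alternative run. At a pseudocount of 200, NS-398 without the suffix gave 0.89 on 1373970_at and 0.51 on 1389581_at, and NS-398 with suffix b gave -1.21 on 1389581_at. Leaving out 1 array at a time gave 0.87 to 1.204 and 0.57 to 0.80 for NS-398 without the suffix, -1.42 to -1.24 and -1.52 to -1.23 for NS-398 with suffix b, and -0.55 to -0.30 and -0.59 to -0.30 for indomethacin, with 1373970_at first. SC-560 against DMSO kept its sign and stayed uncalled, at -0.12 to -0.02 and -0.31 to -0.16 with 1 array left out (limma adjusted p at least 0.141).

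Counts of probe sets depended on the settings. Without the filter there were 778 for indomethacin, 0 for SC-560 and 699 for the interaction. Without the trend there were 1393 for NS-398 without the suffix, 566 for indomethacin, 3 for SC-560 and 512 for the interaction. SC-560 had 7 after quantile normalization, and 1768 probe sets at an unadjusted p under 0.05. With 1 array left out the counts were 833 to 2299 (of 2091) and 1151 to 2758 (of 2574) for NS-398 without the suffix and with suffix b, 305 to 1406 (of 1243) for indomethacin, 0 to 105 (of 16) for SC-560 and 504 to 1213 (of 1066) for the interaction. Counts moved by over 1.5 times without any 1 DMSO or NS-398 array of the set lacking the suffix (833 without NS-398 array 2), without DMSO 1b (1151), DMSO 2b or NS-398 2b, and, for indomethacin, without any 1 DMSO or indomethacin array with suffix b (305 without DMSO 1b). For the interaction DMSO arrays 1, 2 and 1b (504) and NS-398 arrays 1 and 2 did so, and for SC-560 all arrays except NS-398 1b and 2b did (105 without SC-560 array 1). Counts of listed genes without the filter were 8 for NS-398 without the suffix and 3 for the interaction. Without the trend they were 6 and 6 for NS-398 without the suffix and with suffix b, 4 for indomethacin and 3 for the interaction. With 1 array left out they were 5 to 13, 5 to 11, 5 to 11 and 2 to 5 in that order, and 0 for SC-560. The cause was not tested.

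Arrays that shared the label 1 or 2 across groups showed no common deviation. Deviations from the mean of each group and label set correlated between -0.08 and 0.06 over 9 pairs of equally labelled arrays. With 2 arrays behind each mean, this cannot decide whether the arrays were paired. With the replicate block, 4 probe sets were called for SC-560 and 3 listed genes for the interaction, and no other count moved by over 1.5 times.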
